A study of Homo sapiens with 10 samples.

Results

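The genes described here are the cadherins and catenins of cell-cell adhesion: CDH1, CDH2, CDH3, CDH5, CDH11 and CDH13 among the cadherins, and CTNNB1, CTNNA1, CTNND1 and JUP among the catenins. They are the 10 of 60448 genes in the count table whose Ensembl identifiers carry these symbols in GENCODE 44, and they were listed by name, not by their measured values. RNA sequencing compared untreated, confluent monolayers of 2 human endothelial cell lines, with 5 independent biological replicates of each, all labelled as wild type. EA.hy926 is a hybrid line made by fusing umbilical vein endothelial cells with A549, a lung adenocarcinoma line. HMEC-1 comes from dermal microvascular endothelium immortalized with the SV40 large T antigen. EA.hy926 grew in Advanced DMEM and HMEC-1 in MCDB 131 with more serum and with added epidermal growth factor and hydrocortisone, so effects of line and medium cannot be told apart. Cells of both lines were detached with trypsin before RNA extraction.

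Cadherins are transmembrane proteins that bind their like on the neighboring cell in the presence of calcium and so hold cells together at adherens junctions. Inside the cell, the tail of a classical cadherin binds p120-catenin near the membrane and, farther along, either beta-catenin or plakoglobin, and these in turn bind alpha-catenin, which connects the complex to actin filaments. VE-cadherin is the cadherin of endothelial junctions and controls vascular permeability, N-cadherin is present in endothelium as well and takes part in contacts with mural cells, and E-cadherin is the main cadherin of epithelia. Beta-catenin has a further role as the transcriptional partner of TCF and LEF factors in Wnt signaling.

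VE-cadherin and N-cadherin were upregulated in EA.hy926, while beta-catenin was lower in EA.hy926 and the other catenins were modestly higher. CDH5 was 2.88-fold and CDH2 3.83-fold higher in EA.hy926 than in HMEC-1. Of the 10 members 7 could be tested, and these were the 2 of those 7 past both thresholds of the study. The thresholds ask for p under 0.05 after adjustment and for |log2FC| over 1 (edgeR quasi-likelihood test). Of all 16310 genes tested, 35.5% passed both thresholds, made up of 19.1% that were higher and 16.4% that were lower in EA.hy926. CDH1, CDH3 and CDH11 had too few counts to be tested in these libraries. The remaining 5 members passed the adjusted p but differed by less than a log2FC of 1, in a comparison in which 85.8% of all genes tested passed the adjusted p alone. The median log2FC over all genes tested was -0.01. The share of all genes whose lines did not overlap was not counted, so non-overlap describes each member without a background. In bulk RNA, fewer cells that express a gene and less of its RNA per cell cannot be told apart.

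**Figure D1:**
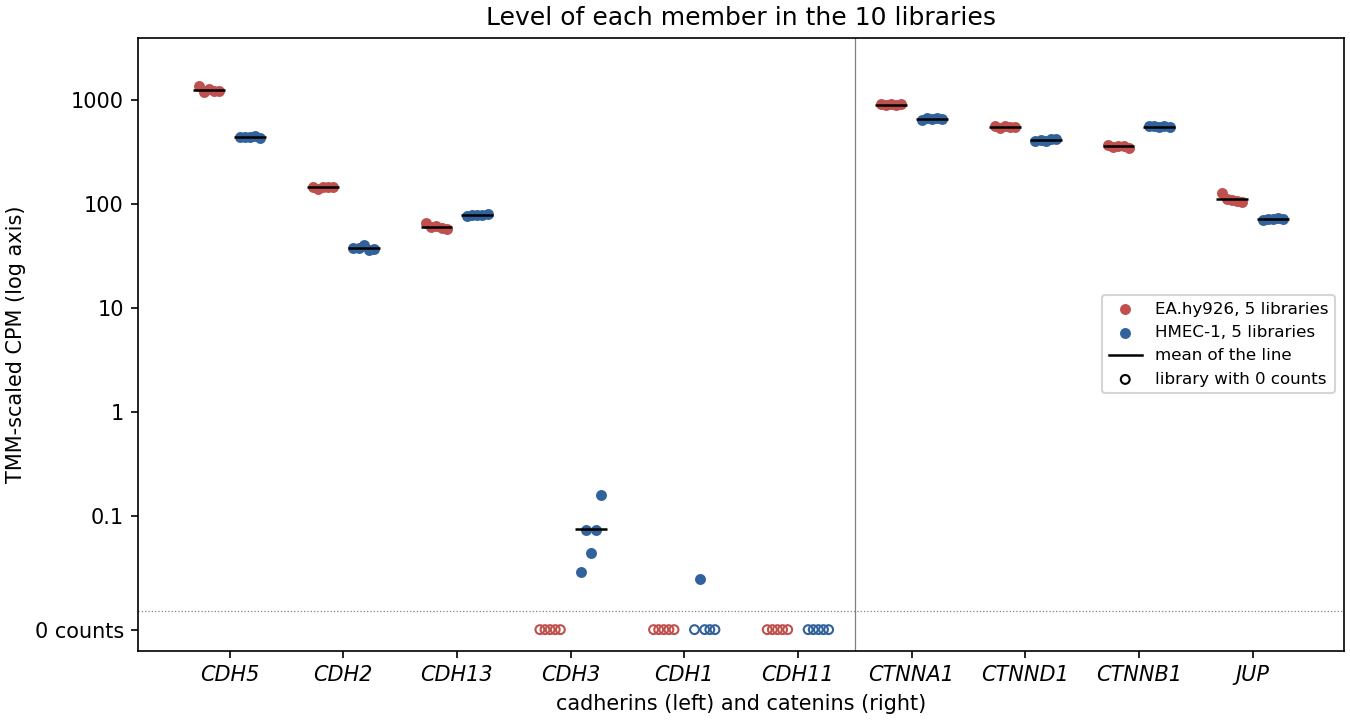
Level of the 10 members in each library, in TMM-scaled CPM on a log axis, with open circles for libraries that had 0 counts and a black line for the mean of a line where no library was at 0. CDH5, CDH2 and 3 catenins lie higher in EA.hy926, CDH13 and CTNNB1 lie higher in HMEC-1, no ranges of the lines overlap for these genes, and CDH1, CDH3 and CDH11 lie near or at 0 in both lines. The share of all genes without such overlap was not counted.

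Sequences upstream of the start sites were compared for the members that the RefSeq promoter table of GRCh38.p14 holds, which were CDH2, CTNNB1, CTNNA1 and JUP, 4 of the 10, with 1 to 4 start sites each; CDH1, CDH3, CDH5, CDH11, CDH13 and CTNND1 were not matched. The letters searched were CAGGTG on either strand (CACCTG on the other), the E-box that repressors of the SNAI and ZEB families recognize, in the 250 bases before each start. The outer CDH2 start is shown because CDH2 was the member with the largest difference between the lines, and the JUP stretch because it holds the letters searched. The CDH2 window, chr18:28177131-28177380 on the minus strand, lies within the GENCODE gene, in none of its exons, and holds no match:
CDH2: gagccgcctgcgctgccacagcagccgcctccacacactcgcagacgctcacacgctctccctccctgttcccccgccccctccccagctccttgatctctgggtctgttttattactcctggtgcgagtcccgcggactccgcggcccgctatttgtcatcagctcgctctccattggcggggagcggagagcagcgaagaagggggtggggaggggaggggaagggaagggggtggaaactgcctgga
The only match among the 9 windows of the 4 genes was at the inner of the JUP start sites. Of the 250 bases of that window, 233 lie in annotated exons, unlike the CDH2 window shown. At chr17:41786008-41786037 on the minus strand, 2 copies on opposite strands, in capitals, begin 54 and 43 bases before the start:
JUP: ctggcccCACCTGccgagCAGGTGagcgca
Of 35116 promoter windows of the same length, 17.5% held at least 1 copy of these letters and 2.53% held at least 2. A match is a description of the sequence and not a binding site.

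CDH5 encodes VE-cadherin, the endothelial cadherin, and lies on chromosome 16 at 66366690 to 66404784 on the plus strand of GRCh38. Its TMM-scaled CPM (counts in proportion to the library size, scaled by TMM factors) were 1370, 1214, 1287, 1238 and 1232 in replicates 1 to 5 of EA.hy926. In HMEC-1 they were 440, 440, 439, 450 and 435. The lowest EA.hy926 library was thus far above the highest HMEC-1 library, and the spread within HMEC-1 was small. EA.hy926 averaged 1268 ± 63.1 CPM against 441 ± 5.39 for HMEC-1 (SD, n = 5), with log2FC = 1.52 ± 0.030 (SE) and an adjusted p of 2.5e-21 in the edgeR test.

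CDH2 encodes N-cadherin and lies on chromosome 18 at 27932879 to 28177946 on the minus strand. It was measured at 145, 139, 147, 145 and 146 CPM in EA.hy926. In HMEC-1 the values were 38.1, 37.6, 40.1, 36.3 and 36.8 CPM. All EA.hy926 libraries were above all HMEC-1 libraries, and replicate 2 of EA.hy926 was the lowest of its line. The log2FC was 1.94 ± 0.030 (SE), with an adjusted p of 6.1e-23 in the edgeR test, from means of 145 ± 3.02 and 37.8 ± 1.45 CPM (SD, n = 5).

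CDH13 encodes T-cadherin, a cadherin held in the membrane by a lipid anchor, without the tail that binds catenins, and known in endothelium as a receptor for adiponectin. It was lower in EA.hy926, at 65.6, 60.2, 62.0, 58.3 and 57.3 CPM. The HMEC-1 libraries had 77.2, 79.3, 77.9, 77.9 and 81.0 CPM. The lines did not overlap, but the difference was small, with HMEC-1 1.30-fold higher (log2FC = -0.37 ± 0.034 (SE), adjusted p of 1.1e-09, edgeR). Of the exonic sequence of CDH13, 21.4% also lies in exons of other genes, at chromosome 16, 82626965 to 83800640, so its counts depend on how reads of overlapping genes were assigned.

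CDH1 (E-cadherin, the epithelial cadherin), CDH3 (P-cadherin) and CDH11 (OB-cadherin, of mesenchymal and bone cells) were at or near 0 in both lines. CDH1 had 0 counts in all 5 EA.hy926 libraries, and its only count in HMEC-1 was 1 read in replicate 2. CDH3 was at 0 counts throughout EA.hy926 and at 1, 3, 2, 3 and 6 counts in the HMEC-1 libraries. CDH11 had 0 counts in all 10 libraries. At the depth of these libraries, a count of 0 allows up to 3 counts, equal to 0.0781 to 0.0904 CPM for EA.hy926 libraries and 0.0651 to 0.0856 for those of HMEC-1, as a limit of counting error only. Of CDH3, a line-to-line difference is not given as a fold, because the mean of HMEC-1 was itself under this limit. Of the 6 cadherins listed, 3 were therefore expressed above a few reads, and the RNA of E-cadherin was not detectable at this depth in EA.hy926, 1 parent of which is an epithelial tumor line.

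CDH1 and CDH3 are neighbors on the plus strand of chromosome 16, at 68737292 to 68835537 and 68636189 to 68727468, with 9.824 kb between them, and 5 of the 10 members (CDH1, CDH3, CDH5, CDH11 and CDH13) lie on this chromosome. The nearest tested protein-coding genes around CDH1 and CDH3 were expressed in both lines, ZFP90 at 24.1 CPM in EA.hy926 and 25.9 in HMEC-1 and TANGO6 at 17.3 and 19.6 CPM. Over the 763 genes tested on chromosome 16, the median log2FC was 0.06. The comparison with neighboring genes was chosen after the values had been seen.

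Catenins were measured at high levels in every library. CTNNB1, the gene of beta-catenin at chromosome 3, 41194741 to 41260096 on the plus strand, was the only catenin of the 4 that was lower in EA.hy926. Its levels were 369, 352, 363, 365.4 and 348 CPM in the EA.hy926 libraries. The HMEC-1 libraries had 561, 561, 559, 565 and 547 CPM. The lowest HMEC-1 library was well above the highest of EA.hy926, and HMEC-1 was 1.55-fold higher (log2FC = -0.64 ± 0.024 (SE), adjusted p of 2.4e-16, edgeR).

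JUP, the gene of plakoglobin, which can take the place of beta-catenin on a cadherin tail and is also a part of desmosomes, lies on chromosome 17 at 41754604 to 41786931 on the minus strand and was 1.56-fold higher in EA.hy926. The EA.hy926 libraries had 127, 113, 109, 107 and 105 CPM, and the HMEC-1 libraries 69.9, 71.8, 72.2, 73.5 and 72.0 CPM. EA.hy926 replicate 1 was the highest of its line, and the lines did not overlap. The log2FC of JUP was 0.64 ± 0.041 (SE), with an adjusted p of 2.9e-12 (edgeR).

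CTNNA1 encodes alpha-catenin, the link between the cadherin complex and actin, and was the catenin with the highest CPM in both lines. It had 912, 904, 920, 897 and 914 CPM in EA.hy926 against 651, 671, 657, 682 and 668 in HMEC-1, with no overlap and a log2FC of 0.45 ± 0.022 (SE; adjusted p of 3.1e-14, edgeR). CTNND1 encodes p120-catenin, which keeps cadherins at the cell surface by hindering their uptake. It had 571, 546, 566, 548 and 549 CPM in EA.hy926 against 402, 411, 402, 423 and 420 CPM in HMEC-1, with a log2FC of 0.43 ± 0.024 (SE; adjusted p of 3.2e-13, edgeR). Its lines did not overlap either, but 39.1% of the exonic bases of CTNND1 are shared with other annotated genes, so this value is uncertain.

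**Figure D2:**
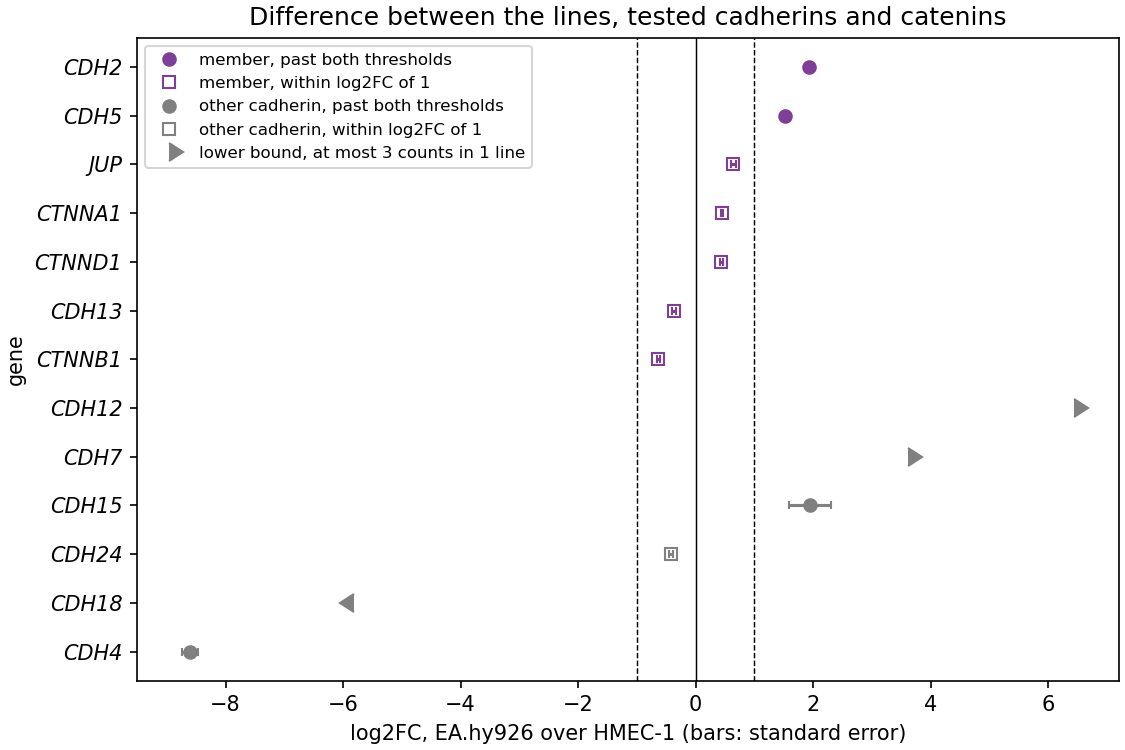
Difference between the lines (log2FC, positive where EA.hy926 was higher, bars for the standard error) for the 7 tested members in purple and 6 tested other cadherins in gray, with dashed lines at -1 and 1 and triangles for lower bounds where a line had at most 3 counts in each library. CDH2 at 1.94 and CDH5 at 1.52 are the members outside the dashed lines, and the other cadherins spread much farther to either side.

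Levels of different genes were compared per length, as CPM per kilobase of exon (RPKM, with the union of annotated exons as the length). In EA.hy926, CDH5 was highest at 211 ± 10.5 RPKM, followed by CTNNA1 at 103 ± 1.01, CTNND1 at 36.6 ± 0.76, CTNNB1 at 30.6 ± 0.78, JUP at 22.7 ± 1.81, CDH2 at 16.9 ± 0.35 and CDH13 at 5.50 ± 0.30 RPKM (SD, n = 5). No neighbors in this order overlapped in their ranges over the libraries. In HMEC-1 the order began with CTNNA1 at 75.4 ± 1.39 and CDH5 at 73.3 ± 0.90 RPKM, whose ranges overlapped. CTNNB1 followed at 47.5 ± 0.58 RPKM, then CTNND1 at 27.0 ± 0.64, JUP at 14.5 ± 0.26, CDH13 at 7.14 ± 0.14 and CDH2 at 4.40 ± 0.17 RPKM, none overlapping its neighbor. CDH2 and CDH13 thus stood in opposite order in the lines, N-cadherin above T-cadherin in EA.hy926 and below it in HMEC-1. With the longest annotated transcript as the length, CDH13 and CDH2 overlapped in HMEC-1, CTNND1 and CTNNB1 overlapped in EA.hy926, CDH2 and JUP overlapped in EA.hy926, and CTNNB1 stood above CDH5 in HMEC-1 at 114 against 107 RPKM.

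VE-cadherin made up most of the cadherin RNA in both lines. Of the summed RPKM of the 6 cadherins, CDH5 took 90.4% ± 0.27 in EA.hy926 and 86.4% ± 0.31 in HMEC-1 (SD, n = 5). CDH2 took 7.23% ± 0.29 and 5.19% ± 0.22, and CDH13 2.36% ± 0.06 and 8.41% ± 0.21. The share of CDH13 was the one that differed most between the lines, and it was higher in HMEC-1 in all libraries, from 8.20% to 8.74% against 2.29% to 2.44%. Shares of the same sum move with CDH5, which was at 211 RPKM in EA.hy926 and 73.3 in HMEC-1. CDH13 itself differed far less, at 5.50 and 7.14 RPKM. The summed level itself was 233 ± 10.9 RPKM in EA.hy926, against 84.9 ± 0.76 RPKM for HMEC-1.

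Among the catenins, CTNNA1 held 53.4% ± 0.79 of the summed RPKM in EA.hy926 and 45.8% ± 0.24 in HMEC-1 (SD, n = 5). CTNNB1 held 15.9% ± 0.30 in EA.hy926 and 28.9% ± 0.45 in HMEC-1, the largest shift among the 4. CTNND1 held 19.0% ± 0.13 and 16.4% ± 0.23, and JUP 11.8% ± 0.76 and 8.84% ± 0.09. The RPKM of the tailed cadherins CDH2 and CDH5 together, over that of CTNNB1 and JUP together, was 4.28 ± 0.099 in EA.hy926 and 1.25 ± 0.0041 in HMEC-1. With the longest transcript as the length it was 3.25 ± 0.072 and 0.863 ± 0.0029, so the ratio was higher in EA.hy926 by either length, while whether these cadherins exceeded their tail-binding partners in HMEC-1 depended on the length taken. Cadherins outside the members, among them CDH4 and CDH24, were left out of this ratio. The 16 other cadherins listed summed to 11.1 ± 0.50 RPKM in EA.hy926 and 18.2 ± 0.52 in HMEC-1. Protein was not measured in these data.

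**Figure D3:**
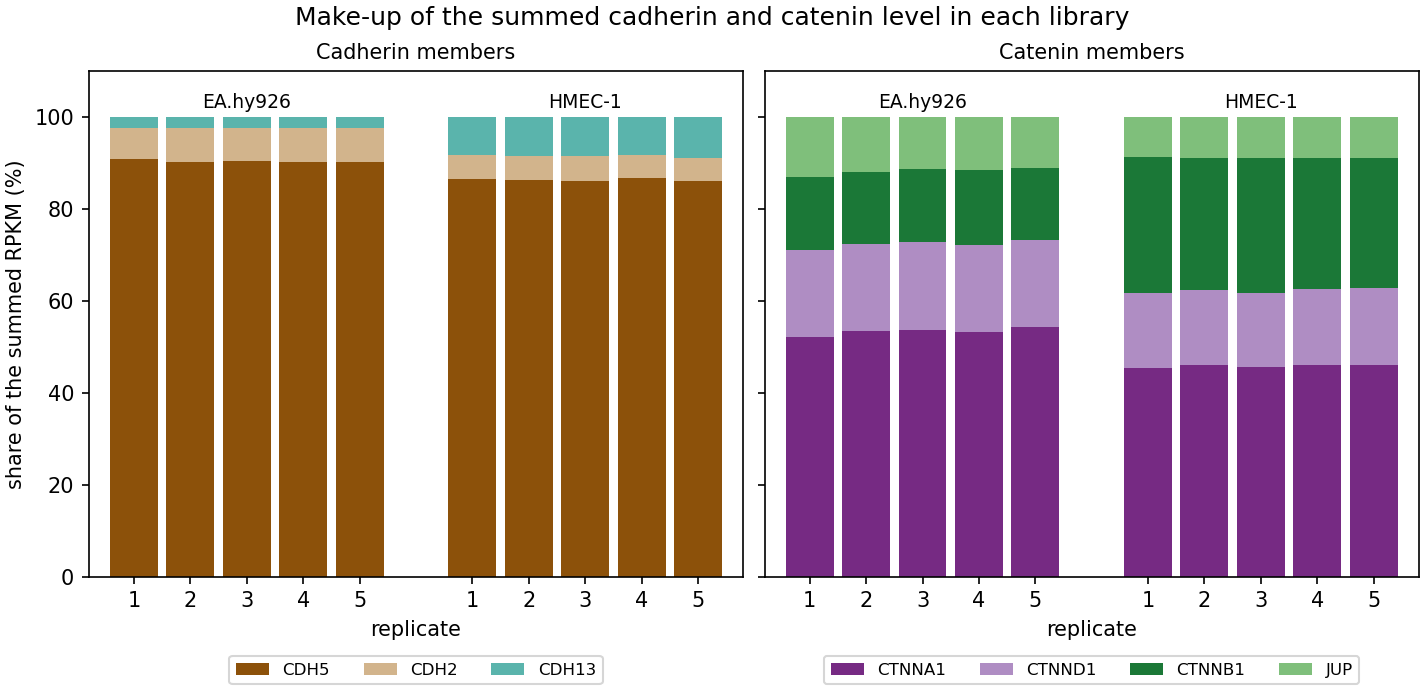
Share of each cadherin (left) and each catenin (right) in the summed RPKM of its class, in percent, for replicates 1 to 5 of each line. CDH5 fills 90.2% to 90.9% of the cadherin bars of EA.hy926 and 86.1% to 86.9% of those of HMEC-1, and the CTNNB1 part of the catenin bars is larger in HMEC-1.

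Ratios of 2 genes within a library do not depend on how the libraries were scaled, and 2 of them were tested. The log2 ratio of the RPKM of CDH2 to that of CDH5 was -3.75, -3.64, -3.64, -3.60 and -3.59 in the EA.hy926 libraries. In HMEC-1 it was -4.04, -4.06, -3.97, -4.14 and -4.08. All EA.hy926 libraries were above all HMEC-1 libraries, and N-cadherin was the far smaller of the pair in both lines. The mean was -3.64 ± 0.063 against -4.06 ± 0.064 (SD, n = 5), 0.41 or 1.33-fold higher in EA.hy926, with a two-sided exact permutation p of 0.00794, the smallest that 5 against 5 libraries allow. N-cadherin RNA was thus higher in EA.hy926 relative to VE-cadherin as well as in absolute CPM.

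The ratio of JUP to CTNNB1 compares the gene products that bind the same part of a cadherin tail. For every 100 RPKM of CTNNB1 there were 82.1, 76.3, 71.6, 69.9 and 71.5 of JUP in EA.hy926 and 29.7, 30.5, 30.7, 31.0 and 31.3 in HMEC-1. EA.hy926 was 2.42-fold higher, a log2 difference of 1.28, with the lines far apart and a two-sided exact permutation p of 0.00794. The levels per 100 hold for the union of exons as the length. With the longest transcript, JUP was lower relative to CTNNB1 in both lines, while the difference of 1.28 stayed the same. JUP was higher and CTNNB1 lower in every EA.hy926 library than in any HMEC-1 library, so the ratio had to separate the lines fully. The p of this ratio thus restates the differences of both genes and adds no separate evidence. Adjusted over both ratios by the Benjamini-Hochberg method, both p-values stay at 0.00794 in these exact tests.

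**Figure D4:**
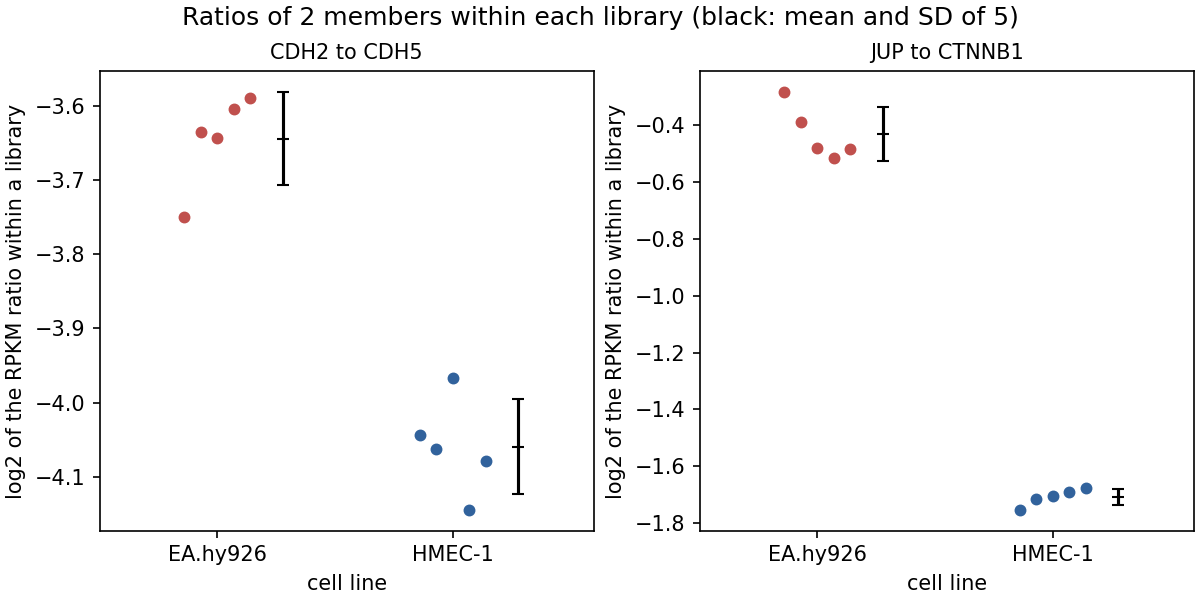
The log2 ratio of the RPKM of CDH2 to CDH5 (left) and of JUP to CTNNB1 (right) in each library, with the mean and SD of 5 libraries in black. The RPKM use the union of exons as the length. Means are -3.64 in EA.hy926 and -4.06 in HMEC-1 for the first and -0.43 and -1.71 for the second, and in both panels all EA.hy926 points lie above all HMEC-1 points.

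The genes whose profile over the 10 libraries was most like that of a member were ranked by the root mean square difference of the centered log2 CPM, over 13025 protein-coding genes. For CDH2 they were TM7SF3 (0.041), NUDT4 (0.043) and ATG4A (0.044), for CDH5 ZNFX1 (0.024), RBCK1 (0.030) and EFEMP1 (0.033), for CDH13 FNDC3B (0.026), GNAQ (0.028) and PPP1CB (0.030), and for CTNNB1 SEPTIN9 (0.018), CAMK2G (0.020) and PPP1R15B (0.024). Likeness of this kind is set mainly by the size of the difference between the lines, and no other member is among these genes.

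Other cadherins had some of the widest differences. The 2 other type I cadherins both passed the thresholds, CDH15 as higher and CDH4 as lower in EA.hy926. CDH4, R-cadherin of the retina and other neural tissue, had 0 to 8 counts in EA.hy926 against 1193 to 1570 in HMEC-1 (log2FC = -8.61 ± 0.14 (SE), or -9.34 without replicate 5 of EA.hy926). Of 11 other type II cadherins, 4 could be tested, and 2 were higher and 1 lower. CDH12 had 258 to 279 counts in EA.hy926 against 0 throughout HMEC-1, which makes it at least 87.0-fold higher if 3 counts are set for each HMEC-1 library, and CDH7 had 32 to 41 counts against 0. CDH18 went the other way, with 0 to 3 counts in EA.hy926 against 161 to 276 in HMEC-1, at least 56.1-fold lower in EA.hy926. CDH24, named after its value was seen, had the highest CPM of the other cadherins in both lines. It was at 35.5 ± 2.03 CPM in EA.hy926 and 47.5 ± 1.83 in HMEC-1 (log2FC = -0.42), within the fold threshold. It gave the largest part of the following sum in both lines. The 16 other cadherin genes listed made 11.1 ± 0.50 RPKM together in EA.hy926 and 18.2 ± 0.52 in HMEC-1. This was 4.55% ± 0.21 and 17.6% ± 0.44 of the RPKM of all 22 cadherins counted (SD, n = 5), so CDH5 and the other members carried the larger share in both lines.

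Among 11 other catenins and armadillo proteins of junctions, 2 were higher and 2 lower, and all 4 were plakophilins, which belong to desmosomes or, for PKP4, to adherens junctions. PKP2 (67.6 ± 3.39 against 11.4 ± 0.90 CPM; log2FC = 2.58) and PKP3 (28.5 ± 1.07 against 0.63 ± 0.10 CPM; log2FC = 5.50) were upregulated in EA.hy926. PKP4 was lower, with log2FC = -1.39, and PKP1 had 0 counts in EA.hy926 against 961 to 1114 in HMEC-1, at least 287-fold lower in EA.hy926. The desmosomal cadherins that plakophilins and plakoglobin bind were at 0 counts in every EA.hy926 library and at 7 or fewer in HMEC-1. DSP, the gene of desmoplakin, was at 0 in EA.hy926 and at 43 to 74 counts in HMEC-1, the 1 of 8 desmosomal genes that could be tested.

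Of 13 genes that link the complex to actin, 2 passed both thresholds, both lower in EA.hy926, and 4 had a log2FC above 0 and 5 below 0 among those past the adjusted p. LIMA1, an actin bundling protein that binds alpha-catenin, fell from 347 ± 6.33 CPM in HMEC-1 to 76.9 ± 4.59 in EA.hy926 (log2FC = -2.17), and AFDN, afadin, which connects nectins to actin, from 205 ± 6.26 to 81.5 ± 1.97 CPM (log2FC = -1.33). VCL, vinculin, named after its value was seen, had 375 CPM in EA.hy926 and 380 in HMEC-1. The median log2FC of this list was -0.02. Of 5 nectin genes, which start contacts beside cadherins, the 2 past both thresholds were lower, PVR (log2FC = -1.83) and NECTIN4 (log2FC = -2.08, near 1 CPM in HMEC-1).

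Of 16 genes for shedding, uptake and phosphorylation of cadherins, 1 passed both thresholds, SRC, the kinase that phosphorylates junction proteins, at 137 ± 1.78 CPM in EA.hy926 and 50.2 ± 0.71 in HMEC-1 (log2FC = 1.45). ADAM10, the protease that sheds VE-cadherin and N-cadherin, named after its value was seen, had a log2FC of -0.41, and the median of the list was 0.02. The count became 2 with library totals, without a filter on low counts, without HMEC-1 replicate 4 or without HMEC-1 replicate 5, when RAP1A (log2FC = -0.98), a small GTPase of junction assembly named after its value was seen, also passed. Of 8 repressors of cadherin genes, 2 passed both thresholds, both lower. By adjusted p alone, 4 of the 7 tested repressors were higher and 3 lower, with a median log2FC of 0.29. TWIST2 was at 5.84 ± 0.46 against 32.4 ± 1.94 CPM (log2FC = -2.47), and SNAI2 had 0 counts in EA.hy926 against 90 to 129 in HMEC-1. ZEB1, named after its value was seen, was at 136 ± 8.14 against 68.5 ± 1.53 CPM, just within the threshold at log2FC = 0.99. It passed without EA.hy926 replicate 2 or without EA.hy926 replicate 4, at log2FC of up to 1.02, which made 3 repressors called, ZEB1 in the opposite direction to the other 2. Of 8 epithelial regulators, GRHL1 was lower (log2FC = -2.20), and GRHL2, which activates CDH1, had 0 counts in all 10 libraries, as CDH1 did in 9 of them. GRHL2 was among 6 of these regulators at 3 counts or fewer in every library, and a link between GRHL2 and CDH1 was not tested.

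For the signaling role of beta-catenin, 1 of 9 genes of its destruction complex was past both thresholds, AXIN2 at 1.44 ± 0.24 CPM in EA.hy926 and 6.30 ± 0.37 in HMEC-1 (log2FC = -2.12), which is also a target of the pathway. Of 8 TCF and LEF factors and partners, 2 were lower, TCF7 (log2FC = -2.82) and LEF1, named after its values were seen, at 0 to 2 counts in EA.hy926 against 20 to 49 in HMEC-1. Of 13 beta-catenin targets, a list that holds AXIN2, TCF7 and LEF1 again, 3 were lower and 1 higher, and 6 could not be tested. The higher one was CCND1, cyclin D1, at 761 ± 18.7 against 114 ± 4.26 CPM (log2FC = 2.73). By adjusted p alone, 3 of the 7 tested targets were higher and 3 lower, and the median log2FC was 0.08. The other 2 higher targets, DKK1 (log2FC = 0.96) and MYC (log2FC = 0.59), named after their values were seen, were within the fold threshold, which DKK1 passed without EA.hy926 replicate 1 at 1.01. TCF7 and LEF1 had means under 3 CPM in both lines.

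**Figure D5:**
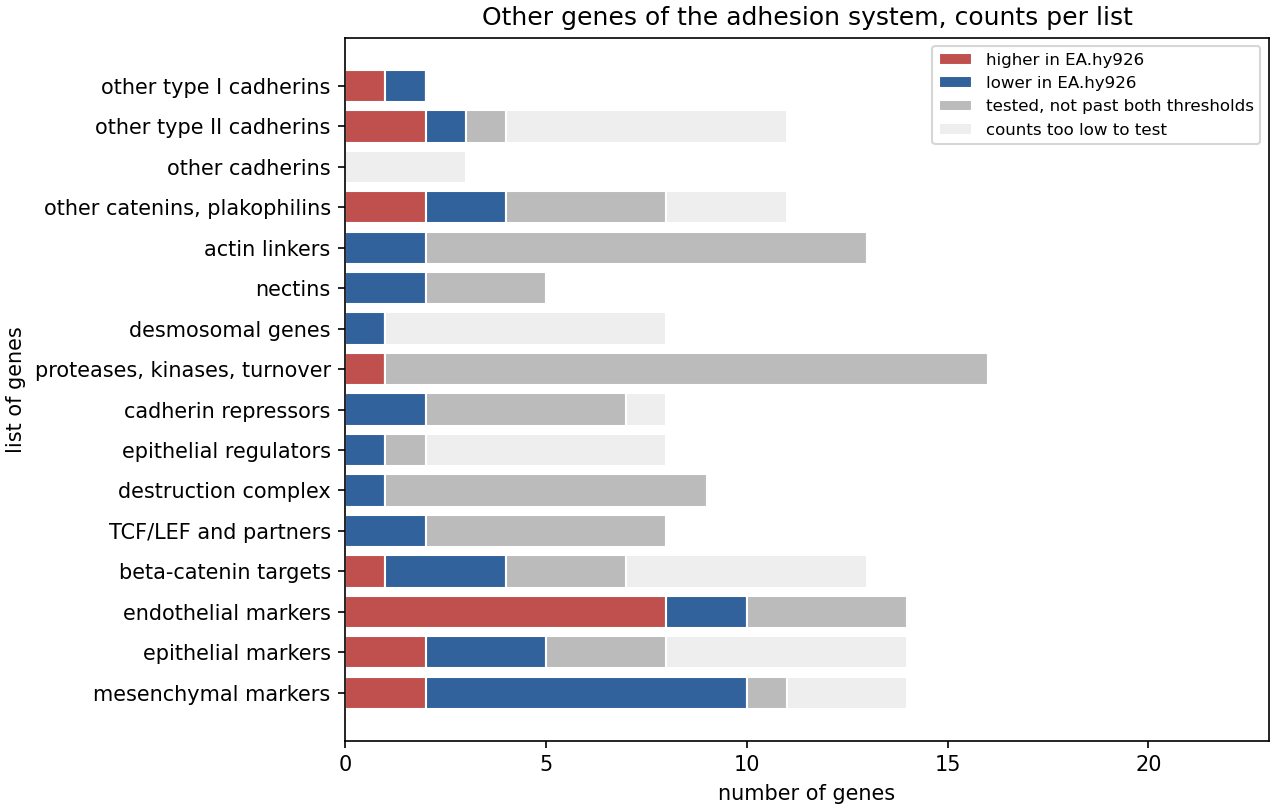
Number of genes in each of the 16 lists of other junction, regulatory and marker genes that were higher or lower in EA.hy926 past both thresholds, tested without passing both, or too low in counts to test. Of the endothelial markers 8 of 14 are higher in EA.hy926 and of the mesenchymal markers 8 of 14 are lower, while 11 of 13 actin linkers and 15 of 16 turnover genes were tested without passing both.

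Both lines are labelled endothelial cells, and markers of endothelial, epithelial and mesenchymal cells also differed between them, in both directions. Of 14 endothelial markers, all tested, 8 were higher and 2 lower, with a median log2FC of 1.18, and their summed level was 4955 to 5586 CPM in EA.hy926 against 1697 to 1751 in HMEC-1. ESAM (log2FC = 5.28) and MMRN1 (log2FC = 7.86) were the most upregulated, CLDN5 was lower (log2FC = -4.27), and EMCN had 0 to 2 counts in EA.hy926 against 678 to 844 in HMEC-1. Of 14 epithelial markers, 2 were higher and 3 lower. Their summed level was 1279 to 1392 CPM in EA.hy926 against 431 to 494 in HMEC-1, much of it from the keratins KRT7 and KRT8 (KRT8 log2FC = 4.83), while ELF3, GRHL2, ESRP1, RAB25 and the member CDH1 were at 3 counts or fewer in every library, and KRT19 (log2FC = -4.71), CLDN7 (-4.54) and CLDN4 (-1.42) were lower in EA.hy926. Of 14 mesenchymal markers, 2 were higher and 8 lower, COL1A1 (log2FC = -10.13) and COL1A2 far lower, with POSTN, at 0 or 1 count in EA.hy926 against 166 to 249 in HMEC-1, and RGS5 higher (log2FC = 6.41). Their summed level was 413 to 471 CPM in EA.hy926 against 533 to 557 in HMEC-1, and DCN and LUM were at 0 in both lines. These sums came from different genes. RGS5 averaged 430 CPM in EA.hy926 and 5.05 in HMEC-1, while COL1A1 averaged 0.32 and 358 CPM and COL1A2 0.04 and 108. In EA.hy926, 8 of the 14 mesenchymal markers were at 3 counts or fewer in every library, against 2 in HMEC-1. The part of these cell-type programs in the differences of CDH5, CDH2 and the catenins was not tested.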

How the data were processed

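Libraries of 2 untreated cell lines, 5 each, were grouped by their labels. The authors enriched polyadenylated RNA, sequenced it on an Illumina instrument, mapped the reads on GRCh38 by HISAT2 and deposited raw counts per gene. The paper names HTSeq for the counting, while the submitters' processing notes name featureCounts, with fastp, HISAT2 and DESeq2. The strand setting and annotation release are not given in the sources used here, so genes that overlap others are uncertain. Total counts were 34846046 to 39899324 for EA.hy926, 33391640 to 43877224 for HMEC-1.

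Symbols, positions and exon lengths were taken from GENCODE 44 (56434 of 60448 genes matched), with overlaps from bedtools 2.31.1. Genes kept by filterByExpr (counts of at least 10, totals of at least 15) were scaled by TMM and compared with the quasi-likelihood test of edgeR 4.0.16 in R 4.3.3, without covariates, with Benjamini-Hochberg adjustment over the 16310 genes tested. The study's thresholds were used (p under 0.05 after adjustment, |log2FC| over 1). The study tested with limma, so limma-voom (limma 3.58.1) was an alternative, beside DESeq2 1.42.0, other filters and factors, the replicate number as a block, glmTreat and each library left out. Standard errors are the absolute log2FC over the square root of F. Where no library of a line exceeded 3 counts, the fold is a bound from the CPM that 3 counts make. Ratios within libraries were compared by exact permutation tests over libraries with scipy 1.17.1, and shares were summarized with pandas 2.3.3. On counts simulated with these library sizes, with 199 of 16243 tested genes changed 3-fold, edgeR called all 199 and 0 others. The simulation gave every gene the same low dispersion and no other difference between the lines. It therefore checks the steps and not the error rate of the real comparison. No pair of replicates agreed within sampling noise (chi-square per degree of freedom 3.08 to 7.63).

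All 10 members were named. Of each of 16 lists (151 genes), the up to 4 genes with the largest absolute log2FC past both thresholds and over 1 CPM in a line were named, and the 3 genes closest in profile to CDH2, CDH5, CDH13 and CTNNB1. Members and lists were chosen with earlier results of these data known. The promoter search and the neighboring genes were added after the values had been seen.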

Additional observations from a re-analysis of the deposited data

Results flagged for a closer look

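In 7 of 72 groups of 5 libraries (the CPM of a member or named gene, a ratio or a share, in 1 line), a single library stood apart from the other 4 by most of the range of the group, which chance alone does in about 5% of groups. Among the members, CDH2 was lowest in replicate 2 of EA.hy926 at 139.4 CPM, against 145.3 to 147.0 in the others. The CDH5 share of the summed cadherin RPKM was highest in replicate 1 of EA.hy926, at 90.87% against 90.22% to 90.39%. Replicate 1 of EA.hy926 was also the highest of its line for LIMA1 (85.01 CPM against 74.15 to 75.98), ESAM (249.996 CPM against 227.3 to 233.2) and CLDN7 (0.325 CPM against 0.108 to 0.130). PVR was highest in replicate 5 of EA.hy926, at 100.5 CPM against 87.26 to 90.63, and CLDN5 lowest in replicate 3 of HMEC-1, at 1.106 CPM against 1.465 to 1.595. None of these libraries moved its gene into the range of the other line.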

How the results depend on the processing

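The 7 tested members and the genes named by the rule kept their direction and their joint call, past both thresholds or not, under all 18 alternatives wherever they were tested (686 values in all). The test against a log2FC of 1 (glmTreat) gave the 5 members within that fold an adjusted p of 1. Among genes named after their values were seen, ZEB1, DKK1 and RAP1A crossed the fold threshold when some single libraries were left out. CDH2 and CDH5 were the 2 members past both thresholds throughout, and without a filter on low counts CDH3, at 0 against 1 to 6 counts, was called too (3 members). The number of genes past both thresholds among all genes rose from 5784 to 9312 without a filter and was 3255 with at least 10 counts in every library, where 33071 and 13107 genes were tested, and it was 5945 to 6000 with a library left out. Of the 151 genes of the lists, 47 passed both, 26 with at least 10 counts in every library (89 tested in place of 112) and 46 to 51 with a library left out. With the longest transcript as the length, the CDH5 share was 87.5% in EA.hy926 and 84.6% in HMEC-1. This length also shifted the 2 log2 ratios within each line, but their differences between the lines stayed at 0.41 and 1.28. Leaving out a library gave log2 ratios of 0.39 to 0.44 for CDH2 to CDH5 and 1.24 to 1.30 for JUP to CTNNB1, and shares of 90.3% to 90.5% and 86.3% to 86.5%. Library totals without factors shifted the median of all genes by -0.13 and turned no member. Of the 5894 genes then called, 2809 were higher in EA.hy926, against 3110 of 5784 with TMM factors. Which direction held more of the called genes thus depended on the scaling.

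Replicate numbers did not pair the samples, since same-numbered libraries correlated at -0.02 to 0.04 in their deviations from the line means. With the replicate block, 5786 genes and the same 2 members were called, and the differences in the ratios, 0.41 and 1.28, had an exact sign-flip p of 0.0625, the smallest that 5 pairs allow. Precision is limited for CDH1, CDH3 and CDH11, where counts were 6 or fewer, and for the overlapping genes CTNND1 and CDH13.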
